A study of Mus musculus with 12 samples.

Results

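The liver enzymes that break down tryptophan, phenylalanine and tyrosine were examined in pups that lack the nuclear receptor PPARα. The group holds 9 genes fixed by name from the steps of both pathways, *Tdo2*, *Afmid*, *Kmo*, *Kynu*, *Haao*, *Acmsd*, *Hpd*, *Hgd* and *Fah*, of the 19938 genes read from these arrays. The choice was made with earlier results of these data known, and it leaves out some steps, which are given further below. All 9 were measured, each by the 1 probe set that carries its symbol alone. Whole livers came from 6 *Ppara*-/- pups and 6 *Ppara*+/+ pups killed at postnatal day 2 (P2) while suckling, 3 males and 3 females of each genotype, with 1 Affymetrix mouse gene array per pup. Both genotypes were born to heterozygous parents in shared litters, and the methods state that the 6 pups of a genotype were drawn from 3 litters, so that some were littermates. The labels do not say which. The *Ppara*-/- pups lacked the receptor in every tissue rather than in hepatocytes alone. The labels give the strain as SV129, whereas the methods describe a C57BL/6 background.

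Dietary tryptophan that is not built into protein is degraded mainly in hepatocytes along the kynurenine pathway, which opens the indole ring, trims the side chain and ends either in full oxidation or in the synthesis of NAD. Phenylalanine enters the tyrosine branch after hydroxylation, and tyrosine is then transaminated, rearranged to homogentisate and cleaved to fumarate and acetoacetate, so that its carbon can feed both gluconeogenesis and the ketone body pool. PPARα is a lipid-sensing transcription factor best known for driving fatty acid oxidation genes. *Acmsd* is known to respond to it in the rat, where PPARα ligands lower its transcript in liver.

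*Hpd* and *Fah*, both in the tyrosine branch, rose in *Ppara*-/- livers by 1.13-fold and 1.12-fold, and no other member passed the test in either direction. The test was limma with sex as a covariate, at a p-value under 0.05 after Benjamini-Hochberg adjustment over all 35556 probe sets. By this rule 2 of 9 members were higher and 0 of 9 were lower, whereas 1.99% of all genes were higher and 1.12% were lower. The median log2 fold change was 0.16 over the 9 members and -0.01 over all genes. In 7 members the *Ppara*-/- mean lay above the *Ppara*+/+ mean, and in *Tdo2* and *Hgd* it lay below. At an unadjusted p under 0.05, 5 members were higher (*Kmo*, *Kynu*, *Acmsd*, *Hpd* and *Fah*) and 0 lower, where 9.27% of all genes were higher and 7.89% lower. By the unadjusted Mann-Whitney test the same 5 members were higher, and so were 9.28% of all genes. The study had drawn *Fah* among its up-regulated amino acid genes from these same arrays, so its rise here is not independent evidence.

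**Figure D1:**
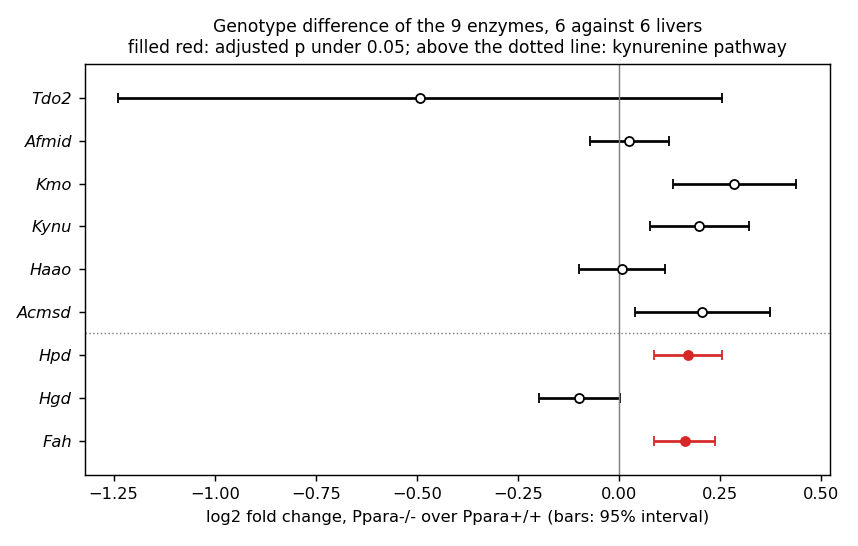
Genotype difference of the 9 enzymes. Each point is the log2 fold change of *Ppara*-/- over *Ppara*+/+ livers (6 each) from limma with its 95% interval, filled red where the adjusted p is under 0.05; *Hpd* (0.17) and *Fah* (0.16) are filled, and the interval of *Tdo2*, from -1.24 to 0.25, is the widest of the 9.

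Facts of the arrays bear on all these values. The deposited log2 signals had array medians of 7.16 to 7.20 and correlations between arrays of 0.989 to 0.996. Precision is set by the 12 arrays. *Ppara* itself lay between 10.21 and 10.33 in *Ppara*-/- livers, against 10.98 to 11.27 in *Ppara*+/+ livers (log2 fold change -0.89, adjusted p = 1.2e-06 from limma). The position of its probes relative to the disruption was not examined. Hepatocyte markers, such as albumin, averaged 13.83 to 13.88 in *Ppara*-/- livers and 13.80 to 13.85 in *Ppara*+/+ livers over 9 genes, with a median log2 fold change of 0.01. Of these 9 genes 7 were above 0, the largest at 0.11, and none passed the test. Kupffer cell and macrophage markers were above 0 in 12 of 12 genes, with a median of 0.20 and none past the test, and so were 12 of 12 endothelial markers (median 0.13, none past it), while 9 of 9 erythroid markers were below 0 (median -0.18, none past it). The part of these cells in the values that follow was not tested. Exocrine pancreas markers were uneven, with the highest mean signals in *Ppara*-/- replicates 6 and 10 (8.53 and 8.04). In whole liver, a difference in the number of cells of a type and a difference in RNA per cell cannot be told apart.

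PPARα binds DNA with its partner RXR at a direct repeat of the half-site AGGTCA with 1 base between the copies, and the promoters of the members were read for it because the receptor is what the genotypes differ in. RefSeq promoters, 300 bases from 250 before to 50 after a gene start on GRCm38.p6, were on hand for 8 of 9 members. For *Afmid*, *Haao* and *Hgd* the start used lay inside the RefSeq span of the gene rather than at its outer end. The repeat, on both strands and counted only as exact copies, was in 0 of the 8 and in 13 (0.0396%) of all 32851 promoters. With so rare a match, its absence from 8 promoters says nothing about the members. At least 1 half-site, AGGTCA or its reverse TGACCT, was in 4 of the 8 (*Tdo2*, *Haao*, *Acmsd* and *Hgd*) and in 16.3% of all promoters, and both risen members, *Hpd* and *Fah*, had none. The stretches of 60 bases that hold the half-sites upstream of the start are shown with the match in capitals, 5′ to 3′ on the strand of the gene. They lie at chr3:81975729-81975788 (*Tdo2*, minus strand), chr17:83846816-83846875 (*Haao*, minus), chr1:127729163-127729222 (*Acmsd*, plus) and chr16:37580042-37580101 (*Hgd*, plus).
*Tdo2*: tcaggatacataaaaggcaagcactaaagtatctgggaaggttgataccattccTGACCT
*Haao*: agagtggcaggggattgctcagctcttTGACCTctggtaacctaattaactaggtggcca
*Acmsd*: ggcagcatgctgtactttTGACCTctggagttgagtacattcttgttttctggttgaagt
*Hgd*: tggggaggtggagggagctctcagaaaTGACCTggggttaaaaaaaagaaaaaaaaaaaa

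For the risen members the last 60 bases before the start are shown for comparison, at chr5:123182724-123182783 (*Hpd*) and chr7:84605943-84606002 (*Fah*), both on the minus strand, all in lower case since they hold no match. A match or its absence in these windows describes the letters alone.
*Hpd*: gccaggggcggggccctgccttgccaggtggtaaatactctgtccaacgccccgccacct
*Fah*: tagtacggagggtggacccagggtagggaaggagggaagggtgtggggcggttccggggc

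The first step of the kynurenine pathway varied most between pups. *Tdo2* encodes tryptophan dioxygenase, the hepatocyte enzyme that opens the indole ring and is known for its induction by glucocorticoids. Its log2 signal ran from 8.15 through a median of 8.57 to 9.61 in *Ppara*-/- livers, against 8.29, 9.17 and 10.33 in *Ppara*+/+ livers. The genotypes overlapped: 1 of 6 *Ppara*-/- values, that of replicate 12, lay above the *Ppara*+/+ median, and 1 lay below the lowest *Ppara*+/+ value. The means were 8.76 ± 0.53 in *Ppara*-/- and 9.25 ± 0.72 in *Ppara*+/+ livers (SD, n = 6 each). The log2 fold change, -0.49 with SE 0.341, did not pass (adjusted p = 0.555; exact two-sided permutation p = 0.208). Permutation p-values, here and for the other members, are not adjusted over the 9 genes. Its 95% interval, from -1.24 to 0.25, does not exclude a fall of more than 2-fold. Without *Ppara*+/+ replicate 7, which had the highest *Tdo2* value, the log2 fold change was -0.25.

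*Afmid* encodes the formamidase that releases kynurenine from its formyl precursor. Its signal was 10.91 at the lowest, 10.99 at the median and 11.09 at the highest in *Ppara*-/- livers, against 10.82, 11.01 and 11.07 in *Ppara*+/+ livers, so the genotypes interleaved. The difference of 0.02 on the log2 scale had a 95% interval from -0.07 to 0.12. A change larger than about 1.09-fold upwards lies outside this interval.

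*Kmo*, the monooxygenase of the outer mitochondrial membrane that hydroxylates kynurenine, had the largest positive difference of the group. Its log2 signal was 10.03 at the lowest, 10.16 at the median and 10.33 at the highest in *Ppara*-/- livers, against 9.76, 9.87 and 10.12 in *Ppara*+/+ livers. Of the *Ppara*-/- values 5 lay above the highest *Ppara*+/+ value, which was that of replicate 7, and all 6 lay above the *Ppara*+/+ median. The log2 fold change was 0.29 with SE 0.0694, a ratio of 1.22, and it missed the threshold (adjusted p = 0.0606; exact permutation p = 0.00433). It passed in 9 of the 22 alternatives that kept limma with adjusted p-values and no minimum change, with adjusted p from 0.00808 to 0.191. The lowest of these came without *Ppara*+/+ replicate 7, where the log2 fold change was 0.34.

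*Kynu* encodes kynureninase, which splits off the alanine side chain. All 6 *Ppara*-/- livers, from 11.47 through a median of 11.52 to 11.63, lay above all 6 *Ppara*+/+ livers, from 11.17 through 11.35 to 11.44. The log2 fold change of 0.20 (SE 0.0558, a ratio of 1.15) missed the threshold (adjusted p = 0.104; exact permutation p = 0.00216, the smallest that 6 against 6 arrays can give). It passed in 0 of those 22 alternatives, with adjusted p from 0.0501 to 0.221. *Kynu*, *Hpd* and *Fah* were the 3 of 9 members whose genotypes did not overlap in this direction, and 0 of 9 separated in the other, while over all genes 2.88% separated upwards and 1.43% downwards. Both *Kmo* and *Kynu* are also known from macrophages. The mean signal of the 12 Kupffer cell and macrophage markers ran from 10.06 to 10.19 in *Ppara*-/- livers and from 9.77 to 10.18 in *Ppara*+/+ livers, with *Ppara*+/+ replicate 7 at 10.18 and its other 5 arrays at 9.97 or below, and their part in the values of *Kmo* and *Kynu* was not tested.

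*Haao* and *Acmsd* stand where the pathway divides. *Haao*, hydroxyanthranilate dioxygenase, makes the unstable intermediate from which NAD is built. It had 11.46 ± 0.04 in *Ppara*-/- livers and 11.45 ± 0.10 in *Ppara*+/+ livers (SD, n = 6 each). The difference of 0.01 on the log2 scale had a 95% interval from -0.10 to 0.11, and its 6 *Ppara*-/- values (11.40 to 11.51) fell inside the range of the *Ppara*+/+ values (11.30 to 11.59). *Acmsd* encodes the decarboxylase that diverts this intermediate away from NAD towards oxidation, and its promoter, like that of *Haao*, holds a half-site. Its signal ran from 7.62 through a median of 7.72 to 8.00 in *Ppara*-/- livers, against 7.28, 7.56 and 7.65 in *Ppara*+/+ livers, so 4 of 6 *Ppara*-/- values exceeded the highest *Ppara*+/+ value. The difference of 0.21 (SE 0.0761, a ratio of 1.15) did not pass (adjusted p = 0.227; exact permutation p = 0.0108). The highest value, 8.00, came from *Ppara*-/- replicate 10 and the lowest, 7.28, from *Ppara*+/+ replicate 8. Replicate 10 was also 1 of the 2 arrays with high exocrine pancreas markers, whose part in this value was not tested; without it the log2 fold change of *Acmsd* was 0.14. *Acmsd* was the dimmest member, with signals close to the array medians.

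**Figure D2:**
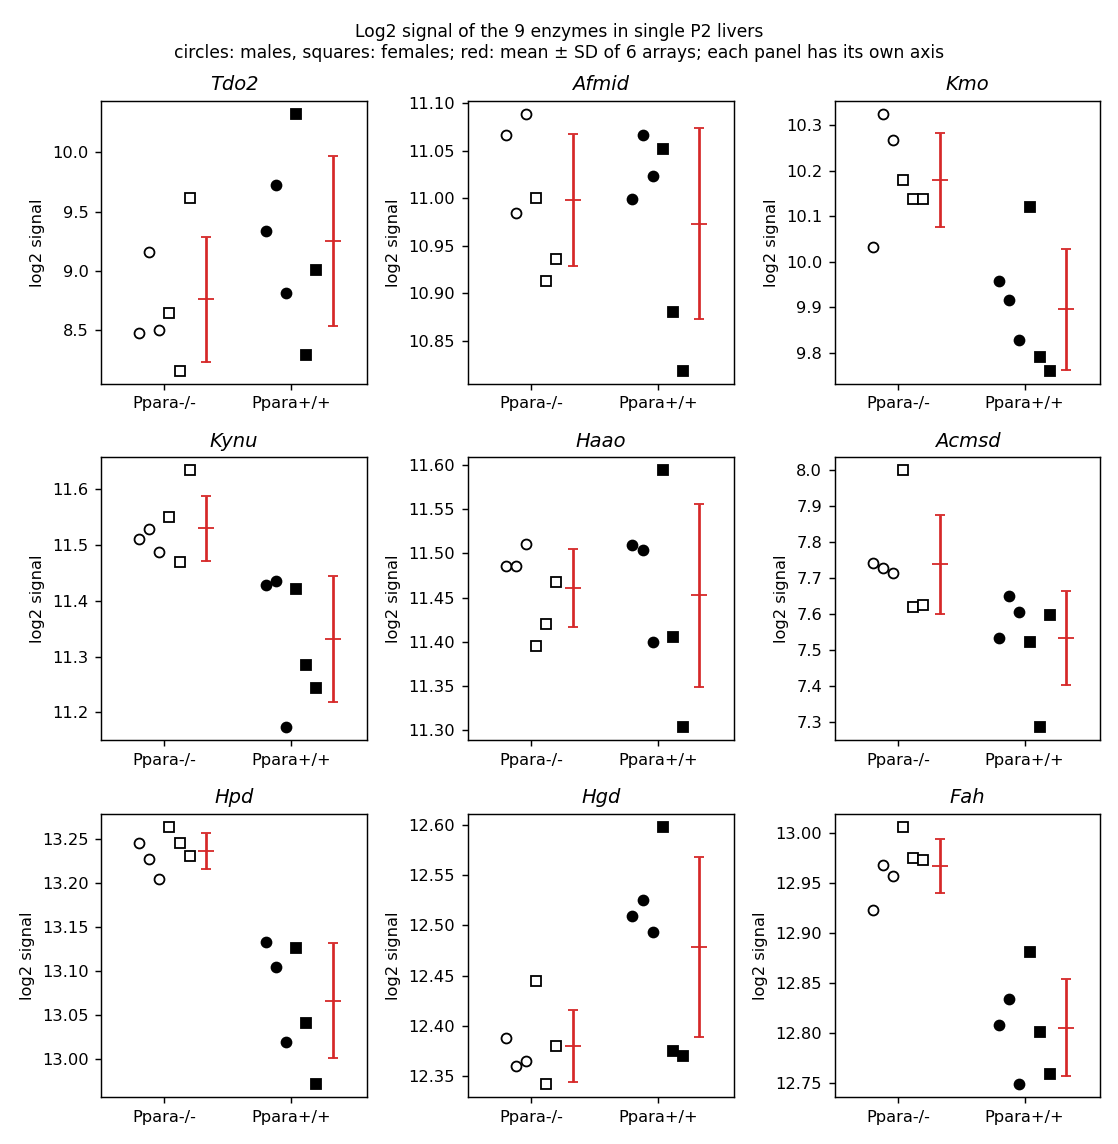
Log2 signal of the 9 enzymes in each P2 liver. Each point is 1 array on an axis of its own panel, open for *Ppara*-/- and black for *Ppara*+/+, circles for males and squares for females, with the mean ± SD of 6 arrays in red; in *Kynu*, *Hpd* and *Fah* all open points lie above all black points, and in *Tdo2* the genotypes overlap.

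In the tyrosine branch *Hpd* and *Fah* rose, and *Hgd*, whose step lies between theirs, did not pass the test. *Hpd* encodes hydroxyphenylpyruvate dioxygenase, which forms homogentisate and is the target of the drug nitisinone. Its log2 signal was 13.20 at the lowest, 13.24 at the median and 13.26 at the highest in *Ppara*-/- livers, against 12.97, 13.07 and 13.13 in *Ppara*+/+ livers. The 6 *Ppara*-/- livers were thus close together and above every *Ppara*+/+ liver. The log2 fold change was 0.17 with SE 0.038 (95% interval 0.09 to 0.25), and it passed (adjusted p = 0.0411 from limma; exact permutation p = 0.00216).

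*Hgd* encodes homogentisate dioxygenase, the enzyme missing in alkaptonuria. Its signal ran from 12.34 through a median of 12.37 to 12.45 in *Ppara*-/- livers, against 12.37, 12.50 and 12.60 in *Ppara*+/+ livers. All 6 *Ppara*-/- values lay below the *Ppara*+/+ median, and 3 lay below the lowest *Ppara*+/+ value, but *Ppara*+/+ replicates 8 and 9 (12.38 and 12.37) sat among the *Ppara*-/- livers. The log2 fold change was -0.10 with SE 0.0455 (95% interval -0.20 to 0.00) and did not pass (adjusted p = 0.341; exact permutation p = 0.0346).

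*Fah* encodes fumarylacetoacetase, the last enzyme of the branch, which yields fumarate and acetoacetate and whose loss causes hereditary tyrosinaemia. Its signal was 12.92 at the lowest, 12.97 at the median and 13.01 at the highest in *Ppara*-/- livers, against 12.75, 12.80 and 12.88 in *Ppara*+/+ livers, again with no overlap. The means were 12.97 ± 0.03 in *Ppara*-/- and 12.81 ± 0.05 in *Ppara*+/+ livers (SD, n = 6 each). This difference of 0.16 on the log2 scale (SE 0.034, 95% interval 0.09 to 0.24) passed, with an adjusted p of 0.0307 from limma and an exact permutation p of 0.00216.

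The calls of *Hpd* and *Fah* lay near the threshold. With 1 array left out, *Hpd* passed in 2 of 12 fits (without *Ppara*+/+ replicates 1 or 7) and *Fah* in 1 of 12 (without *Ppara*+/+ replicate 7), and without any other array neither passed, with adjusted p up to 0.104 and 0.0826. Over the same fits the log2 fold change of *Hpd* ran from 0.15 to 0.19 and that of *Fah* from 0.15 to 0.18. A fit of 4 groups of genotype and sex gave adjusted p of 0.0584 for *Hpd* and 0.0517 for *Fah*. After quantile normalization of the deposited values the log2 fold changes were 0.15 (*Hpd*) and 0.13 (*Fah*). Their adjusted p-values from limma were then 0.0775 and 0.0636, and *Hgd* stood at -0.13. Without *Ppara*-/- replicates 6 and 10, the arrays with the highest exocrine pancreas markers, the log2 fold changes were 0.17 (*Hpd*) and 0.15 (*Fah*) with adjusted p of 0.119 and 0.122, a comparison added after the data were seen. Over the 22 alternatives the adjusted p ran from 0.00454 to 0.119 for *Hpd* and from 0.00182 to 0.122 for *Fah*. *Hpd* passed in 9 of them and *Fah* in 8.

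**Figure D3:**
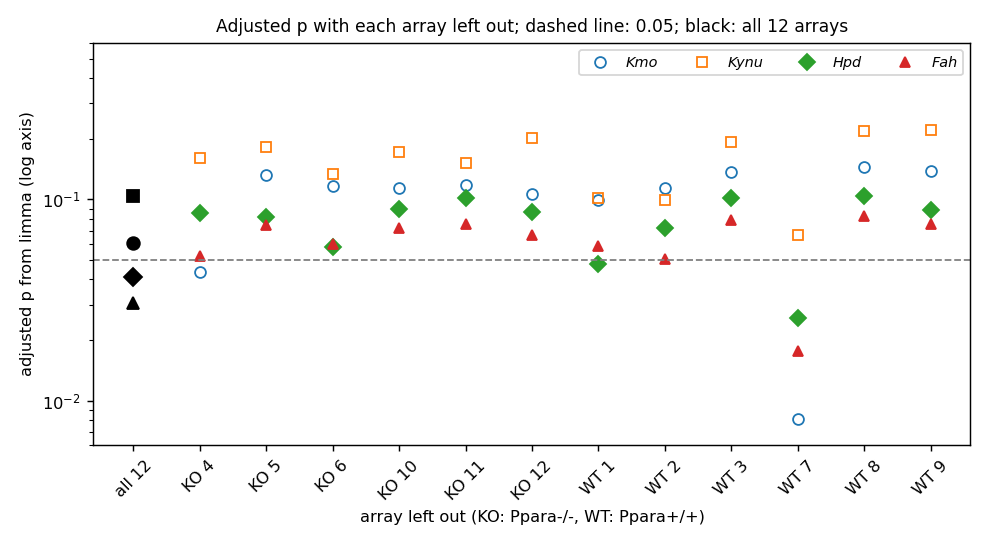
Adjusted p of *Kmo*, *Kynu*, *Hpd* and *Fah* with each array left out in turn. The vertical log axis gives the adjusted p from limma, the horizontal axis the array left out (KO for *Ppara*-/-, WT for *Ppara*+/+, with its replicate number), black symbols all 12 arrays and the dashed line 0.05; without *Ppara*+/+ replicate 7, *Kmo* (0.00808), *Fah* (0.0177) and *Hpd* (0.0257) lie below the line.

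The members also differed in how the livers of 1 genotype spread. Among *Ppara*+/+ livers replicate 7 had the highest value of the 6 in 5 of 9 members and replicate 9 the lowest in 5 of 9, while replicate 8 lay below the *Ppara*+/+ mean in all 9. Replicate 7 also had the lowest erythroid marker mean of the *Ppara*+/+ livers, 11.45, where the next was 11.70. Its hepatocyte, macrophage, endothelial, stellate and granulocyte marker means were the highest of the 6, but not its bile duct, pancreas or kidney means. The part of this in the member values was not tested. Among *Ppara*-/- livers replicate 10 was highest in 4 members and replicate 11 lowest in 5. The SD was smaller in *Ppara*-/- than in *Ppara*+/+ livers for 8 of 9 members, with *Acmsd* as the exception, against 52% of all genes. No test was made of this spread, and the 9 members share the same arrays.

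**Figure D4:**
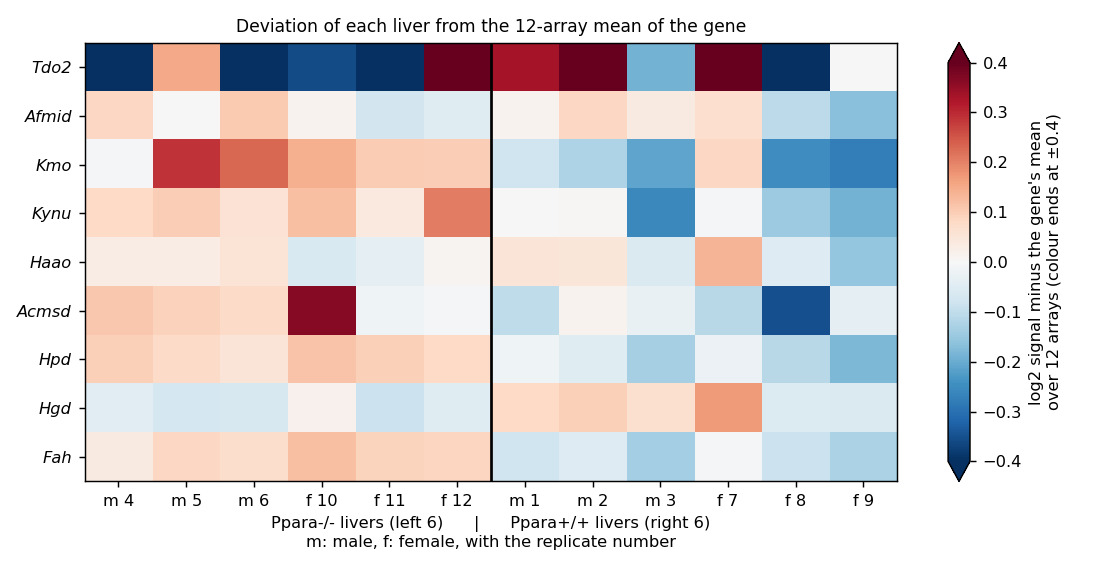
Deviation of each liver from the 12-array mean of a gene, by member (rows) and liver (columns, *Ppara*-/- on the left, *Ppara*+/+ on the right, males before females). Colour gives the log2 deviation and ends at ±0.4, which several livers pass in *Tdo2*; the *Ppara*-/- livers are red throughout in *Hpd* and *Fah*, and *Ppara*+/+ replicates 8 and 9 are blue in most rows.

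No difference between the sexes was detected in these genotype differences. In males the log2 fold change of *Hpd* was 0.14 (SE 0.0552) and that of *Fah* 0.15 (SE 0.0508), and in females they were 0.20 and 0.17. Within a sex, with 3 against 3 livers and the spread shared by all arrays, 0 of 9 members passed in either direction. Of all genes, 0.461% were higher in *Ppara*-/- livers within males and 0.321% within females. The share of genes lower within a sex was not counted. *Haao* was the one member whose difference had opposite signs, 0.02 in males and -0.01 in females. For the interaction of genotype and sex, 0 of 9 members passed, as did 0% of all genes. At an unadjusted p under 0.05 there were 0 members and 1004 of 35556 probe sets. The smallest adjusted p from limma over all probe sets was 0.693. Sex itself separated 0 of 9 members and 0.0401% of all genes, with 1 member, *Afmid*, at an unadjusted p under 0.05 (log2 difference of males minus females 0.11), as were 2.78% of all genes.

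Of 30 other measured genes of these pathways, out of 32 asked for, 2 rose and 1 fell. By the same rule 1.99% of all genes were higher and 1.12% were lower, so these counts rest on very few genes. In the tryptophan and NAD genes 0 of 19 rose and 1 fell, and in the genes of phenylalanine, tyrosine and their cofactor 2 of 11 rose and 0 fell, with medians of 0.01 and -0.02. Phenylalanine hydroxylation itself was not analysed here. *Kyat3*, an aminotransferase that turns kynurenine into kynurenic acid, fell: its 6 *Ppara*-/- values (11.32 to 11.49) lay below all 6 *Ppara*+/+ values (11.54 to 11.71). Its log2 fold change was -0.26 (SE 0.043), with an adjusted p of 0.00764 from limma. *Kyat1* and *Aadat*, also aminotransferases of this pathway, did not pass. Their log2 fold changes were -0.18 and -0.01, with adjusted p of 0.139 and 0.978 from limma.

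*Gchfr*, the feedback regulator of the enzyme that starts tetrahydrobiopterin synthesis, rose, by a log2 difference of 0.21 (SE 0.0409), with 9.99 to 10.19 in *Ppara*-/- livers against 9.82 to 9.97 in *Ppara*+/+ livers and an adjusted p of 0.0198 from limma. *Dnajc12*, a co-chaperone of the aromatic amino acid hydroxylases, rose 1.36-fold (log2 fold change 0.44, SE 0.0969, adjusted p = 0.038), with 9.67 to 10.32 in *Ppara*-/- livers against 9.35 to 9.60 in *Ppara*+/+ livers. In each of the 3 genes the genotypes did not overlap. The genes are named because they passed on these same arrays, so this separation is not added support. The other pathway genes that separated, none of which passed, were *Aldh8a1* and *Dhtkd1* upwards and *Kyat1* downwards. *Kyat1* had 10.79 to 11.08 in *Ppara*-/- livers against 11.11 to 11.26 in *Ppara*+/+ livers. Over all genes 2.88% separated upwards and 1.43% downwards. The count of rises became 0 without *Ppara*-/- replicate 10 or without *Ppara*+/+ replicate 1, 2 or 8, and 1 (*Gchfr*) when *Ppara*-/- replicate 4, 5, 6 or 12 was omitted, and likewise for *Ppara*+/+ replicates 3 and 9. Without *Ppara*+/+ replicate 7 it became 5, with *Nadsyn1*, *Nampt* and *Dhtkd1* added, and *Nmnat3* joined *Kyat3* among 2 falls.

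Neither the alternative ring-opening enzymes nor *Tat* and *Gstz1* of tyrosine breakdown passed. *Ido1*, the inducible dioxygenase of immune cells, had 5.33 ± 0.15 in *Ppara*-/- and 5.35 ± 0.07 in *Ppara*+/+ livers, well below the array medians (SD, n = 6 each). *Ido2*, its relative in liver, differed by -0.22 (95% interval -0.45 to 0.02). *Tat*, tyrosine aminotransferase, which feeds *Hpd*, had a log2 fold change of -0.14 (95% interval -0.31 to 0.04), and its SD was 0.05 in *Ppara*-/- and 0.21 in *Ppara*+/+ livers. *Gstz1*, the isomerase between *Hgd* and *Fah*, stood at 0.00 (95% interval -0.09 to 0.10).

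**Figure D5:**
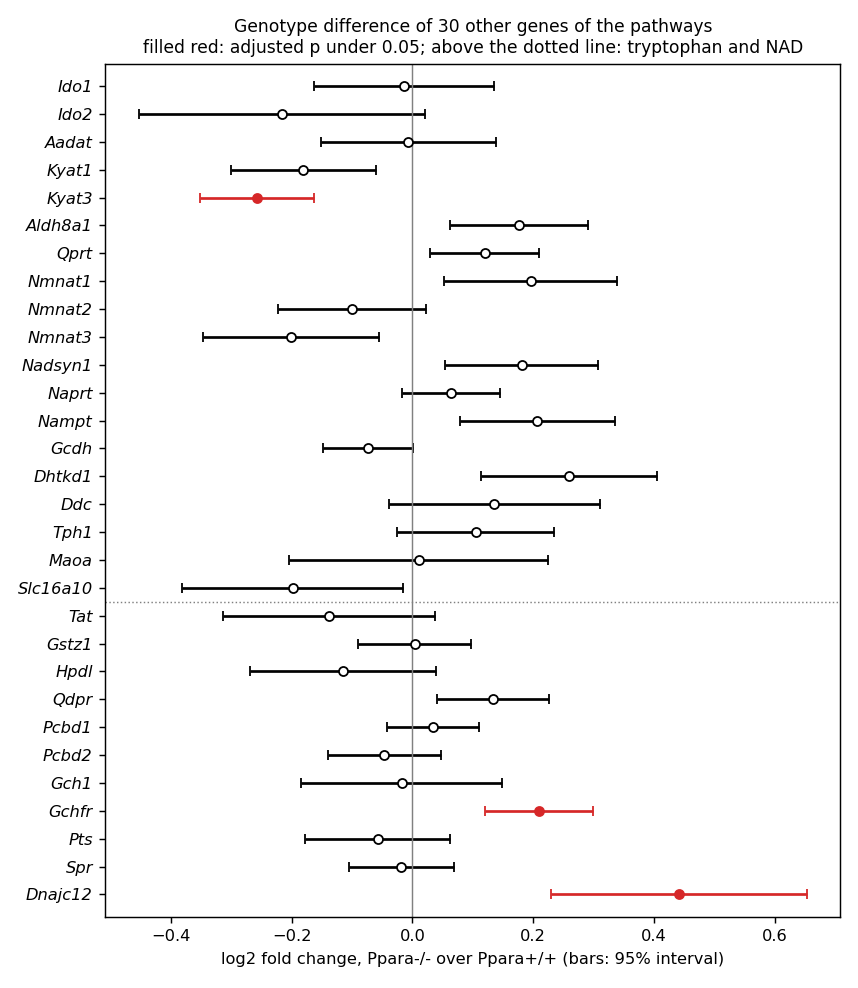
Genotype difference of 30 other genes of tryptophan, NAD, phenylalanine, tyrosine and tetrahydrobiopterin metabolism. Points give the log2 fold change of *Ppara*-/- over *Ppara*+/+ livers (6 each) with 95% intervals from limma, filled red where the adjusted p is under 0.05; *Kyat3* (-0.26) lies below 0, and *Gchfr* (0.21) and *Dnajc12* (0.44) lie above it.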

How the data were processed

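Liver RNA of 12 pups was measured on Affymetrix Mouse Gene 1.0 ST arrays. RNA was extracted with TRIzol and silica columns, and samples with an integrity number above 8 were labelled. Values per probe set, on the log2 scale, were deposited by the authors after RMA (background correction, normalization across arrays and summary; version not given in the sources used) and were not normalized again. RMA brings the arrays towards a common distribution, so a change shared by most genes would not show. The match was not exact in the deposited values, since a further quantile normalization shifted the log2 fold changes of members.

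Of 35556 probe sets 21789 name 1 gene, 1621 several and 12146 none in the platform annotation, and a gene's value is that of its brightest probe set, by mean over the 12 arrays, among those naming it alone. The gene identifiers of all 9 members matched RefSeq. A linear model of genotype and sex was fitted to every probe set with limma 3.58.1 under R 4.3.3 (lmFit, eBayes; 9 residual degrees of freedom, 2.49 prior), with Benjamini-Hochberg adjustment over all probe sets. Interaction, within-sex and sex contrasts were adjusted in the same way. Exact permutation tests compared means over all 924 arrangements, two-sided. Litter is not in the labels and entered no model, so p-values measure the spread between pups, although the 6 of each genotype came from 3 litters.

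The members, the lists of pathway and marker genes and the tests were chosen with earlier results of these data known. The rule for named genes was all members, *Ppara*, the pathway genes that passed, and *Ido1*, *Ido2*, *Tat* and *Gstz1*. It also names 1 further gene, which was not analysed here. *Aldh8a1*, *Dhtkd1*, *Kyat1*, *Aadat*, *Nadsyn1*, *Nampt* and *Nmnat3* did not pass the main fit and are named for comparison or for their calls in alternatives. The alternatives were another sex model, scaling, filter, variance model, weights, test, minimum change or summary, and leaving out each array; 1, leaving out *Ppara*-/- replicates 6 and 10, was added after the data were seen. The fit was tested on simulated data. Markers of erythroid cells (median log2 fold change -0.18 over 9 genes), endothelium (0.13 over 12), stellate cells (0.10 over 10), bile duct cells (0.07 over 5), granulocytes (0.07 over 10), exocrine pancreas (0.34 over 8) and kidney tubule (-0.01 over 8) were also read, and none of these genes passed.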

Additional observations from a re-analysis of the deposited data

Results flagged for a closer look

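In 18 groups of 6 livers (9 members in each genotype) the highest and the lowest value were set against the rest of their group, and 2 values stood apart by a gap of more than 0.625 of the range; chance gives about 1 such group in 20. Both were in *Acmsd*: 8.00 in *Ppara*-/- replicate 10, where the next liver had 7.74, and 7.28 in *Ppara*+/+ replicate 8, where the next had 7.52. Without *Ppara*-/- replicate 10 the log2 fold change of *Acmsd* was 0.14, and without *Ppara*+/+ replicate 8 it was 0.16, against 0.21 with all arrays.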

How the results depend on the processing

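The count of 2 higher members became 0 with 4 groups, 1 (*Kmo*) after quantile normalization, 0 by Mann-Whitney after adjustment, 5 with that test unadjusted, 5 with unadjusted limma p-values, 0 with a change above 1.3-fold or beyond 1.3 on the log2 scale, and 0 without *Ppara*-/- replicates 6 and 10; with 1 array left out it ran from 0 to 3. It was 3, with *Kmo* added, without the sex term, without dim probe sets, over probe sets of 1 gene, with a robust variance trend, with array weights and with probe sets averaged by gene, and 2 after median centring. The smallest adjusted Mann-Whitney p over all probe sets was 0.0691. The count of lower members was 0 throughout. Among the other pathway genes 4 of 30 were lower and 9 higher at unadjusted p (7.89% and 9.27% of all genes), 0 rose without *Ppara*-/- replicates 6 and 10, and with 1 array left out 1 to 2 fell and 0 to 5 rose. Of the members *Haao* alone changed sign, and its log2 fold change ran from -0.019 (*Ppara*+/+ replicate 9 omitted) to 0.045 (*Ppara*+/+ replicate 7) with 1 array left out; omitting *Ppara*+/+ replicate 3 gave -0.01. The other settings kept each member's direction, and the cause of the lost calls was not tested. No paired analysis by litter was possible because the labels do not give the litter of each pup.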

Other observations

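The 3 members in the tyrosine branch were also set against each other within a liver, a comparison chosen after their values were seen and given with no test. The log2 signal of *Hpd* minus that of *Hgd* on the same array was 0.82 to 0.90 in *Ppara*-/- livers and 0.53 to 0.67 in *Ppara*+/+ livers (means 0.86 ± 0.03 and 0.59 ± 0.05, SD, n = 6 each). That of *Fah* minus *Hgd* was 0.54 to 0.63 in *Ppara*-/- livers and 0.26 to 0.43 in *Ppara*+/+ livers. Only the shift between genotypes, 0.27 and 0.26, can be read, since probe sets differ in their response. Neither difference overlapped between the genotypes, but *Hpd* and *Fah* alone did not overlap either.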
